A study of Rattus norvegicus with 15 samples.

Results

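The genes described here are 10 markers of alveolar type 1 cells, namely Ager, Hopx, Pdpn, Aqp5, Rtkn2, Clic5, Akap5, Emp2, Cldn18 and Gprc5a. They were chosen by name, with earlier results of these data known. All 10 were found among the 22250 genes of the table, and all 10 were among the 13172 genes tested, which reached an FPKM of 1 in 5 or more libraries. FPKM scales the fragments of a gene by its length and by the size of the library, so levels of different genes can be compared per length. No member fell under this floor in any library, and the lowest value of all was 1.47 FPKM, for Rtkn2 in 1 COPD lung.

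RNA of lung from wild-type rats was sequenced in 15 libraries, 5 in each of 3 groups. WDD rats were exposed to lipopolysaccharide, a bacterial cell wall component, and to smoke through the trachea, and also received WDD (Wendan Decoction, a Chinese herbal formula) by gavage. COPD rats had the same exposure without the decoction, as a model of chronic obstructive pulmonary disease. Control rats were normal controls. The sources used here do not give strain, age, doses or durations. Whether the 5 libraries of a group stem from different rats is not stated, and p-values therefore reflect the spread between these samples alone. Lung tissue holds many cell types, and fewer cells of a type and less RNA per cell cannot be told apart in such data.

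Alveolar type 1 cells are the very thin, flat cells that line most of the gas-exchange surface. They form the barrier between air and the capillaries together with the endothelium and a shared basement membrane. They do not usually divide. After injury they are mainly replaced from alveolar type 2 cells, the cuboidal cells that make surfactant. The 10 genes cover different parts of this cell: receptors and signalling proteins at the membrane (Ager, Gprc5a, Akap5), an effector of small GTPases (Rtkn2), membrane glycoprotein, channel and barrier proteins (Pdpn, Aqp5, Clic5, Emp2, Cldn18) and a nuclear protein (Hopx). Several are shared with other cells. Cldn18, Emp2 and Gprc5a occur in other epithelial cells, and Pdpn also marks lymphatic endothelium and mesothelium.

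The promoters of 4 members are shown because they belong to the gene with the deepest fall in COPD lungs (Rtkn2), the gene with the shallowest (Hopx) and the only members whose window held a motif that was searched (Emp2 and Cldn18). Each is the 250 bases before the RefSeq transcription start in build GRCr8, 5′ to 3′ on the gene's strand. The windows are chr20:20608863-20609112 on the minus strand for Rtkn2, chr14:31429163-31429412 on the plus strand for Hopx, chr10:5866619-5866868 on the plus strand for Emp2 and chr8:109144620-109144869 on the minus strand for Cldn18. Capitals mark the motif.
Rtkn2: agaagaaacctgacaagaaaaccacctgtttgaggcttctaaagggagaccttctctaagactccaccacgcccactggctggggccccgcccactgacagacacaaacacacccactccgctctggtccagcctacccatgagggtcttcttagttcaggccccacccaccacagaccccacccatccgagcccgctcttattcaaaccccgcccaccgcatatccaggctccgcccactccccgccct
Hopx: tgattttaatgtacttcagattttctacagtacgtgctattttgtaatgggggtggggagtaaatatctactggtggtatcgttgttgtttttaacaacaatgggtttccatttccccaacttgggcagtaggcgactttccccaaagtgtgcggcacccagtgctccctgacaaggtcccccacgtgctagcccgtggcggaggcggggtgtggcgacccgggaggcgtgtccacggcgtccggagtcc
Emp2: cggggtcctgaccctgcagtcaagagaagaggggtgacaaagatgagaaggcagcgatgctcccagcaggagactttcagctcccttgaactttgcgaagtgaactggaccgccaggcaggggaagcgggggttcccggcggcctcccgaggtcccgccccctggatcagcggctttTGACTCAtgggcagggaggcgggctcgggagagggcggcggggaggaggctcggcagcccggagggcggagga
Cldn18: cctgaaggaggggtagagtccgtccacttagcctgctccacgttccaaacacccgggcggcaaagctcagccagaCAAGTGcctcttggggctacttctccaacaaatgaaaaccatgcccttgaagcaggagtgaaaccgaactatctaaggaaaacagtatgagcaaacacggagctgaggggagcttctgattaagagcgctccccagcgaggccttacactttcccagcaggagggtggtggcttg
RefSeq promoters were matched for 9 of the 10 members. On both strands, GGAATG (the motif of TEAD factors) was in 0 of the 9 windows and in 11.8% of 27457 rat promoters of this length. CAAGTG (a motif of NKX2-1, a lung epithelial factor) was in 1 of 9, in Cldn18 at 175 to 170 bases before the start, against 11.7% of all promoters. TGANTCA (AP-1) was in 1 of 9, as TGACTCA in Emp2 at 73 to 67 bases before the start, against 6.36%. TATAAA (the TATA box) was in 0 of 9, against 13.1%. GC content of the 9 windows ran between 51.6% in Pdpn and 83.2% in Aqp5, and the median of all promoters was 52.0%.

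The groups differed in library makeup, and these values stand beside every result that follows. Mitochondrially encoded genes took 21.7% ± 2.90 of the FPKM sum in WDD lungs, 44.9% ± 12.4 in COPD lungs and 8.11% ± 1.94 in control lungs (mean ± SD, n = 5 each), with no overlap between any pair of groups. Long housekeeping transcripts were low against short ones in both exposed groups. The difference of their medians on the log2(FPKM + 1) scale was -3.67 ± 0.37 in WDD lungs, -3.73 ± 0.46 in COPD lungs and -1.70 ± 0.61 in control lungs. In COPD against control lungs 28 of 28 long ones were lower and 12 of 29 short ones higher. As deposited, the median gene of all tested differed by -0.81 on the log2 scale between COPD and control lungs, by 0.54 between WDD and COPD lungs and by -0.23 between WDD and control lungs. Changes are therefore also given after median-of-ratios scaling, which brought these medians to -0.05, 0.03 and 0.01. That scaling did not remove the difference between long and short transcripts. In COPD against control lungs 20 of 28 long ones were then still lower and 29 of 29 short ones higher. In WDD against control lungs 20 of 28 long ones were then lower and 28 of 29 short ones higher. The part of library makeup in the results was not tested.

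**Figure D1:**
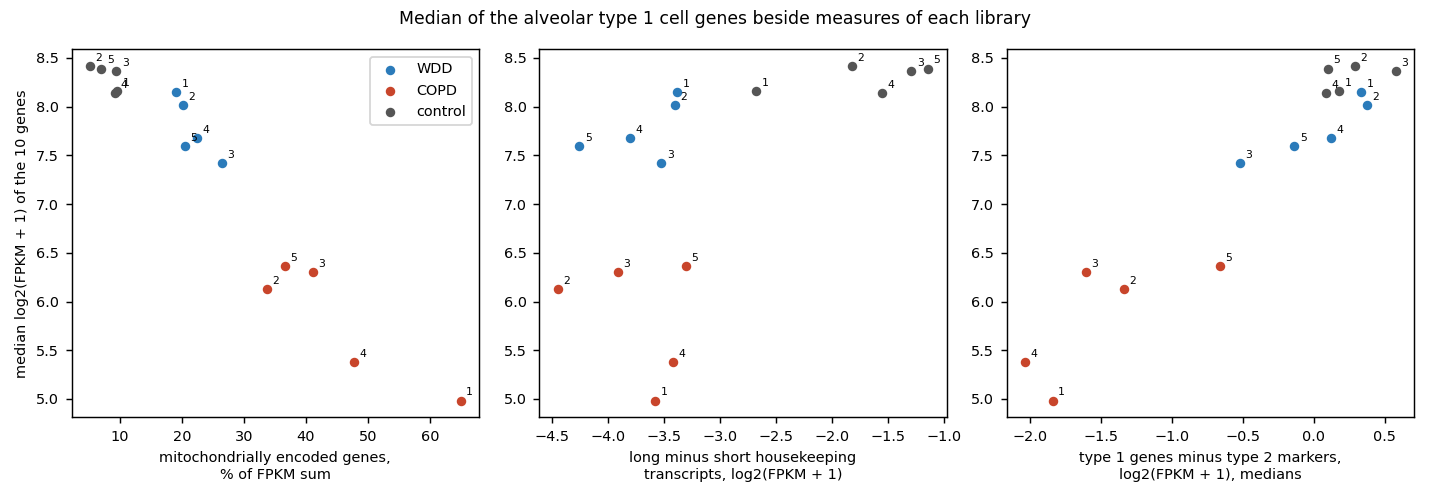
Median log2(FPKM + 1) of the 10 genes (y axis) against measures of each library (x axes). Each numbered point is 1 WDD, COPD or control library. The x axes are the mitochondrial % of the FPKM sum, long minus short housekeeping transcripts, and type 1 minus type 2 medians. Both differences are on the log2 scale. The type 1 minus type 2 axis contains the y value, so an upward trend is built in there. The mitochondrial share of the FPKM sum averaged 21.7% in WDD, 44.9% in COPD and 8.11% in control lungs, and long minus short housekeeping transcripts averaged -3.67, -3.73 and -1.70 on the log2 scale.

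All 10 alveolar type 1 genes were lower in COPD lungs than in control lungs, with no overlap between the libraries for any of them, and all 10 were higher in WDD lungs than in COPD lungs, again with no overlap. Against control lungs, 5 members were lower in WDD lungs and 5 did not pass the test. The summed FPKM of the 10 genes was 3013 to 4206 in WDD lungs, 627 to 1728 in COPD lungs and 3518 to 4755 in control lungs. The call rule was an adjusted p under 0.05 in limma, with Benjamini-Hochberg adjustment over all tested genes. For COPD against control, 66.4% of all tested genes were called lower and 8.23% higher, and 52.3% lay lower and 3.99% higher without overlap, so being lower was the common outcome. The median log2 difference was -2.43 over the 10 members and -0.81 over all tested genes. For WDD against COPD, 57.1% of tested genes were called higher and 6.63% lower, 40.6% lay higher and 4.43% lower without overlap, and the medians were 1.90 and 0.54. For WDD against control, 31.0% were called lower and 6.35% higher, 31.4% lay lower and 6.76% higher without overlap (4 of the 10 members lay lower), and the medians were -0.63 and -0.23.

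**Figure D2:**
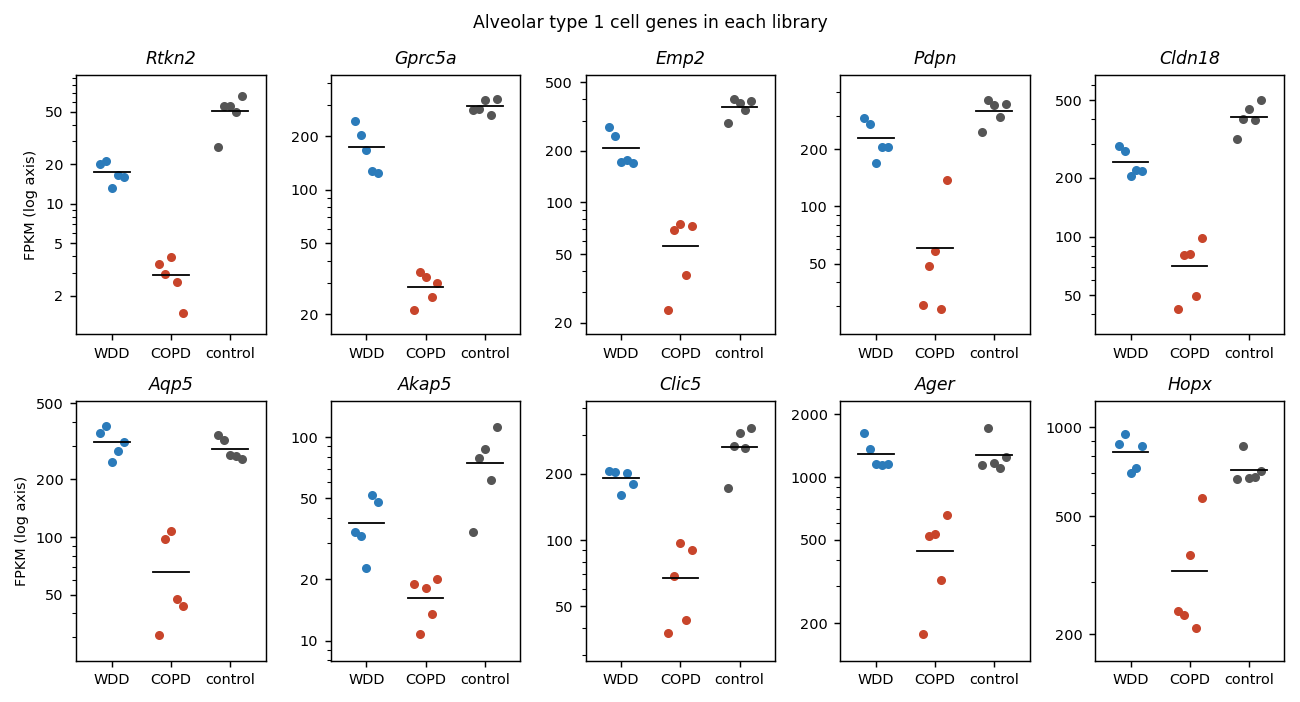
FPKM of the 10 genes on a log axis in each of the 5 WDD, 5 COPD and 5 control libraries, 1 panel per gene, with group means as horizontal lines. The COPD points lie under all WDD and all control points in every panel. WDD points lie under all control points for Rtkn2, Emp2, Cldn18 and Gprc5a.

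Ager encodes the receptor for advanced glycation end products, which binds S100 proteins and HMGB1 and is exceptionally abundant in alveolar type 1 cells. It had 1617, 1369, 1157, 1144 and 1158 FPKM in WDD lungs, 178, 520.2, 537, 322 and 655 FPKM in COPD lungs and 1141, 1722, 1169, 1105 and 1251 FPKM in control lungs. COPD lungs lay far under both other groups, and WDD lungs overlapped control lungs. By FPKM, Ager was between ranks 30 and 67 of 22250 genes in WDD lungs, between 101 and 212 in COPD lungs and between 18 and 34 in control lungs. On the log2(FPKM + 1) scale, used for every difference below, it fell by 1.65 ± 0.28 in COPD against control lungs (SE; adjusted p = 6.10e-05) and was higher by 1.67 ± 0.28 (adjusted p = 0.000115) in WDD against COPD lungs. WDD against control lungs gave 0.02 ± 0.28 (adjusted p = 0.966). The mean of WDD lungs was 101% of the control mean. Among 10 tested genes of its ligands and signalling, Ager included, 4 rose and 2 fell in COPD against control lungs. The 2 that fell were Ager itself and S100b. After median-of-ratios scaling 7 rose and 1 fell, and the 1 that fell was Ager. The ligand genes S100a8 and S100a9, which neutrophils express at high level, were far higher in COPD lungs. S100a8 averaged 54.7 ± 47.8 FPKM in WDD lungs, 8453 ± 4944 in COPD lungs and 14.2 ± 7.50 in control lungs, and S100a9 averaged 140.2 ± 115 FPKM in WDD lungs, 15336 ± 7591 in COPD lungs and 37.3 ± 9.68 in control lungs. In WDD against COPD lungs 3 of the 10 rose and 3 fell (2 and 6 after median-of-ratios scaling), with Ager among those that rose. In WDD against control lungs 5 rose and 2 fell under either scaling.

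Gprc5a encodes an orphan receptor induced by retinoic acid and known in mice as a lung tumour suppressor. It had 244, 202, 168, 127 and 124 FPKM in WDD lungs, 21.2, 34.4, 32.6, 24.9 and 30.0 FPKM in COPD lungs and 279.9, 285, 318, 265 and 323 FPKM in control lungs. The 3 groups did not overlap: all WDD lungs lay over all COPD lungs and under all control lungs. The COPD mean was 9.73% and the WDD mean 58.9% of the control mean. The difference was -3.33 ± 0.19 (adjusted p = 1.50e-09) for COPD against control, 2.53 ± 0.19 (adjusted p = 5.66e-08) for WDD against COPD and -0.81 ± 0.19 (adjusted p = 0.00297) for WDD against control. In COPD lungs it also varied least of the 10 members, with a coefficient of variation of 19.1%. Its relatives Gprc5b and Gprc5c, the other tested genes of the family, were at lower levels and moved the same way, at -1.79 and -1.61 in COPD against control lungs (adjusted p = 3.05e-07 and 2.57e-07). As deposited, all 3 genes of the family, Gprc5a included, were called in each comparison. After median-of-ratios scaling all 3 were still called in COPD against control and in WDD against COPD lungs. In WDD against control lungs 2 of the 3 were then lower.

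Rtkn2 encodes rhotekin 2, an effector of small GTPases. It was the lowest member in every group and had 20.1, 21.1, 13.1, 16.4 and 15.96 FPKM in WDD lungs, 3.46, 2.95, 3.96, 2.53 and 1.47 FPKM in COPD lungs and 27.0, 55.1, 55.8, 49.6 and 66.3 FPKM in control lungs. All WDD lungs lay over all COPD lungs and under all control lungs. Rtkn2 had the deepest fall of the members in COPD against control lungs, -3.72 ± 0.23 (adjusted p = 2.97e-09), and 0.281% of tested genes fell further. The COPD mean was 5.67% of the control mean. In WDD against COPD lungs it was higher by 2.26 ± 0.23 (adjusted p = 1.10e-06). The WDD mean was 34.2% of the control mean, the smallest such share of the 10 genes, with a difference of -1.46 ± 0.23 (adjusted p = 0.000182).

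Akap5 encodes a scaffold that holds protein kinase A and the phosphatase calcineurin near the membrane. It had 34.2, 32.7, 22.8, 52.0 and 48.0 FPKM in WDD lungs, 18.9, 10.7, 18.1, 13.5 and 20.01 FPKM in COPD lungs and 34.1, 79.2, 87.0, 61.9 and 112 FPKM in control lungs. COPD lungs lay under both other groups, while WDD and control lungs overlapped through control 1. The fall in COPD against control lungs was -2.07 ± 0.28 (adjusted p = 6.40e-06). The rise in WDD against COPD lungs was the smallest of the 10, 1.15 ± 0.28 (adjusted p = 0.00239), and did not pass after median-of-ratios scaling (0.53, adjusted p = 0.184). Against control lungs the WDD difference was -0.92 ± 0.28 (adjusted p = 0.0184). It did not pass without WDD 3 (adjusted p = 0.0555), without control 5 (adjusted p = 0.0586) or after median-of-ratios scaling (-0.64, adjusted p = 0.133). Of 10 tested genes for its partners, which are kinase and calcineurin subunits and adenylyl cyclases, 9 fell in COPD against control lungs, 7 rose in WDD against COPD lungs and 7 were lower in WDD than in control lungs. After median-of-ratios scaling 3 fell and 1 rose, 2 rose and 1 fell, and 5 were lower and 1 higher in these comparisons. The cyclase gene Adcy6 averaged 10.5 ± 2.21 FPKM in WDD lungs, 3.93 ± 1.43 in COPD lungs and 18.5 ± 1.78 in control lungs.

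Hopx encodes a small homeodomain protein that does not bind DNA itself and marks alveolar type 1 cells and their precursors. It had 876, 949, 700.1, 727 and 866 FPKM in WDD lungs, 240.2, 232, 369, 210.3 and 578 FPKM in COPD lungs and 669.6, 864, 671, 680.3 and 710.2 FPKM in control lungs. COPD lungs lay under both other groups, and WDD lungs overlapped control lungs. Its fall in COPD lungs was the smallest of the 10, -1.24 ± 0.23 (adjusted p = 0.000131), and 29.6% of tested genes fell further. After median-of-ratios scaling the fall did not pass (-0.31, adjusted p = 0.305). In WDD against COPD lungs Hopx was higher by 1.44 ± 0.23 (adjusted p = 7.21e-05), and in WDD against control lungs the difference was 0.19 ± 0.23 (adjusted p = 0.547).

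Pdpn encodes podoplanin, a mucin-type glycoprotein of the apical membrane. It had 291, 271, 169, 204 and 206 FPKM in WDD lungs, 30.5, 48.6, 58.0, 29.0 and 138 FPKM in COPD lungs and 247, 362, 339.8, 296 and 345 FPKM in control lungs. COPD 5 stood well above the other COPD lungs and yet under every WDD lung, and Pdpn varied most of the members in COPD lungs, with a coefficient of variation of 73.9%. The difference was -2.60 ± 0.32 (adjusted p = 1.89e-06) in COPD against control lungs and 2.11 ± 0.32 (adjusted p = 4.33e-05) in WDD against COPD lungs. WDD and control lungs overlapped, and their difference of -0.49 ± 0.32 (adjusted p = 0.246) did not pass. It passed as lower under 5 of 28 alternatives, among them quantile normalisation (adjusted p = 0.0458), a fit of only these groups (0.0181) and library weights (0.0113). The other cells that make podoplanin were read from their own genes. All 4 tested lymphatic endothelial genes fell in COPD against control lungs (1 after median-of-ratios scaling), with Lyve1 at 136 ± 27.6 FPKM in WDD lungs, 40.9 ± 20.5 in COPD lungs and 126 ± 14.9 in control lungs. Of 5 tested mesothelial genes 4 fell, among them Upk3b with 0.538 ± 0.835 FPKM in WDD lungs, 0.106 ± 0.0983 in COPD lungs and 3.09 ± 1.95 in control lungs. The summed FPKM of the lymphatic list was 213 to 362 in WDD lungs, 33.2 to 163 in COPD lungs and 183 to 294 in control lungs. That of the mesothelial list was 4.68 to 27.2 in WDD lungs, 3.41 to 13.1 in COPD lungs and 16.6 to 44.2 in control lungs. Their part in the Pdpn values was not tested.

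Aqp5 encodes the water channel of the apical membrane of these cells and of airway glands. It had 351, 378, 246, 283 and 315 FPKM in WDD lungs, 30.7, 98.1, 107, 47.4 and 43.4 FPKM in COPD lungs and 342, 319.7, 268, 265 and 256 FPKM in control lungs. All COPD lungs lay under all other lungs, and WDD lungs overlapped control lungs. The difference was -2.29 ± 0.28 (adjusted p = 1.53e-06) in COPD against control lungs, 2.40 ± 0.28 (adjusted p = 3.52e-06) in WDD against COPD lungs and 0.11 ± 0.28 (adjusted p = 0.789) in WDD against control lungs. Aquaporin genes differed among themselves. Of 5 tested, 3 fell and 1 rose in COPD against control lungs (2 and 1 after median-of-ratios scaling). Aqp1, the water channel of capillary endothelium, averaged 102 ± 8.51 FPKM in WDD lungs, 11.6 ± 4.76 in COPD lungs and 147 ± 23.1 in control lungs. Aqp9, which passes glycerol as well as water and is expressed in leukocytes, rose by 3.37 ± 0.32 (adjusted p = 1.28e-07) and averaged 0.702 ± 0.378 FPKM in WDD lungs, 15.7 ± 7.61 in COPD lungs and 0.429 ± 0.200 in control lungs.

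Clic5 encodes a chloride intracellular channel protein that associates with ezrin and actin at the membrane. It had 207, 204, 161, 203 and 179 FPKM in WDD lungs, 37.8, 68.6, 97.2, 43.4 and 90.4 FPKM in COPD lungs and 173, 267, 306, 263 and 322 FPKM in control lungs. COPD lungs did not overlap either other group, and WDD lungs overlapped control lungs through control 1. The difference was -2.03 ± 0.24 (adjusted p = 1.40e-06) in COPD against control lungs and 1.58 ± 0.24 (adjusted p = 4.98e-05) in WDD against COPD lungs, whereas WDD against control lungs gave -0.45 ± 0.24 (adjusted p = 0.156). The last passed as lower under 6 of 28 alternatives, among them quantile normalisation (adjusted p = 0.0263), a fit of only these groups (0.0251) and library weights (0.00410). Clic1, a widely expressed member of the family, went the other way and rose in COPD against control lungs by 0.80 ± 0.13 (adjusted p = 4.42e-05). Clic3 and Clic6 fell, at -1.62 and -1.71 (adjusted p = 3.42e-06 and 0.000273). Of 6 tested genes of the family, Clic5 included, 3 fell and 1 rose in this comparison. After median-of-ratios scaling 3 fell and 2 rose.

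Emp2 encodes a membrane protein of the PMP22 family that affects caveolin levels. It had 274, 245, 172, 178 and 169.7 FPKM in WDD lungs, 23.6, 69.4, 74.7, 38.0 and 72.7 FPKM in COPD lungs and 289, 402, 379, 343 and 392 FPKM in control lungs. Each group stood apart from the others. The COPD mean was 15.4% and the WDD mean 57.5% of the control mean. The difference was -2.79 ± 0.27 (adjusted p = 1.57e-07) in COPD against control lungs and 1.98 ± 0.27 (adjusted p = 1.73e-05) in WDD against COPD lungs. In WDD against control lungs it was -0.82 ± 0.27 (adjusted p = 0.0257), and this did not pass without WDD 3, WDD 4, WDD 5, control 2, control 3 or control 5, each left out alone (adjusted p = 0.0536 to 0.0633), or after median-of-ratios scaling (-0.53, adjusted p = 0.103). Among 10 tested genes of caveolae and of partners at the plasma membrane, 7 fell and 1 rose in COPD against control lungs, and 7 rose and 2 fell in WDD against COPD lungs. After median-of-ratios scaling 6 fell and 3 rose, and 5 rose and 3 fell. Cav1, the main caveolin of endothelium and type 1 cells, averaged 297 ± 49.5 FPKM in WDD lungs, 101 ± 58.5 in COPD lungs and 525 ± 73.0 in control lungs. Cavin1, which builds the caveolar coat, averaged 301 ± 21.8 FPKM in WDD lungs, 90.6 ± 41.5 in COPD lungs and 304 ± 44.8 in control lungs.

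Cldn18 encodes the lung's main alveolar claudin, a protein of tight junctions. It had 291, 274, 204, 220.2 and 217 FPKM in WDD lungs, 42.7, 80.5, 81.1, 49.9 and 98.7 FPKM in COPD lungs and 315, 399.6, 452, 397 and 500.0 FPKM in control lungs. Each group again stood apart from the others. The difference was -2.58 ± 0.21 (adjusted p = 3.07e-08) in COPD against control lungs, 1.81 ± 0.21 (adjusted p = 4.18e-06) in WDD against COPD lungs and -0.77 ± 0.21 (adjusted p = 0.00927) in WDD against control lungs. The last did not pass after median-of-ratios scaling (-0.49, adjusted p = 0.0727). The COPD mean was 17.1% and the WDD mean 58.5% of the control mean. Of 13 tested genes of claudins and other tight junction proteins, Cldn18 included, 11 fell and 0 rose in COPD against control lungs, and 11 rose and 0 fell in WDD against COPD lungs. In WDD against control lungs 6 of the 13 were lower and 0 higher. After median-of-ratios scaling these counts were 11 lower and 2 higher, 9 higher and 1 lower, and 1 lower and 0 higher. F11r, a junctional adhesion molecule, averaged 92.4 ± 12.2 FPKM in WDD lungs, 20.2 ± 10.1 in COPD lungs and 147 ± 10.8 in control lungs, and Cldn12, another claudin, averaged 5.53 ± 0.604 FPKM in WDD lungs, 1.49 ± 0.443 in COPD lungs and 9.65 ± 1.90 in control lungs.

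**Figure D3:**
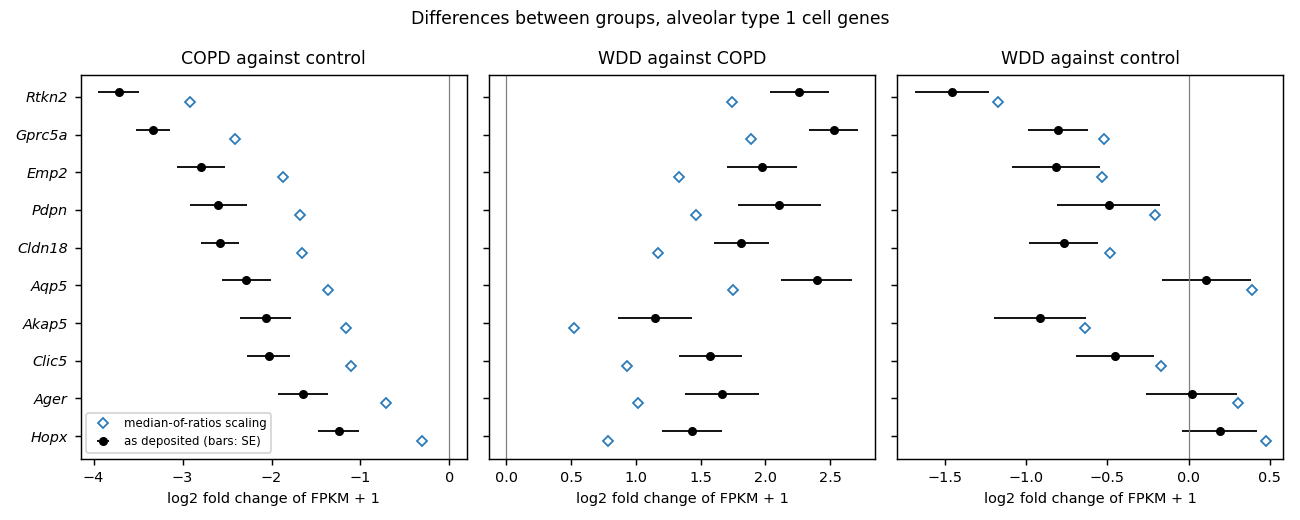
Log2 differences of the 10 genes with standard errors from limma for COPD against control, WDD against COPD and WDD against control, as deposited (filled points) and after median-of-ratios scaling (open points), 1 gene per row. In both, all 10 lie below zero for COPD against control and above it for WDD against COPD. For WDD against control, as deposited, Ager, Hopx and Aqp5 lie near zero and Rtkn2 is lowest at -1.46.

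Members fell unequally in COPD against control lungs, and the order of the falls was Rtkn2, Gprc5a, Emp2, Pdpn, Cldn18, Aqp5, Akap5, Clic5, Ager and Hopx. Their standard errors were 0.19 to 0.32, and Emp2, Pdpn and Cldn18 differed by less than the standard error of Pdpn. Differences between members were not tested. After median-of-ratios scaling 9 of the 10 were still lower, against 32.3% of all tested genes (30.2% were higher), with a median of -1.51. The differences then were -2.92 for Rtkn2, -2.41 for Gprc5a, -1.87 for Emp2, -1.67 for Pdpn, -1.65 for Cldn18, -1.36 for Aqp5, -1.16 for Akap5, -1.10 for Clic5 and -0.71 for Ager (adjusted p = 0.0249 for Ager, the weakest of these). In WDD against COPD lungs after this scaling, 9 of the 10 were higher, against 23.4% of tested genes (21.4% were lower), with a median of 1.25. In WDD against control lungs 2 of the 10 were then lower, Rtkn2 at -1.18 (adjusted p = 0.00111) and Gprc5a at -0.52 (adjusted p = 0.0228), against 16.9% of tested genes (15.9% were higher).

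The 10 genes were also compared within each library. For each library, a gene's log2(FPKM + 1) was taken minus the median of the 10 in the same library. Ager stood 2.55 ± 0.13 above that median in WDD lungs, 2.82 ± 0.20 in COPD lungs and 2.008 ± 0.20 in control lungs. Hopx stood 1.91 ± 0.20 above it in WDD lungs, 2.41 ± 0.48 in COPD lungs and 1.19 ± 0.13 in control lungs. For both genes all WDD and all COPD lungs lay above all control lungs. Emp2 went the other way, at -0.10 ± 0.09 in WDD lungs, -0.13 ± 0.14 in COPD lungs and 0.20 ± 0.10 in control lungs, with both exposed groups below every control lung. Rtkn2 stood at -3.59 ± 0.09 in WDD lungs, -3.91 ± 0.82 in COPD lungs and -2.66 ± 0.40 in control lungs, where WDD lungs but not COPD lungs cleared the controls. Gprc5a was at -0.38 ± 0.27 in WDD lungs, -0.96 ± 0.37 in COPD lungs and -0.09 ± 0.09 in control lungs, and here COPD lungs cleared the controls. Aqp5 was at 0.52 ± 0.14 in WDD lungs, 0.06 ± 0.56 in COPD lungs and -0.12 ± 0.25 in control lungs, with WDD lungs above all controls. Clic5 was at -0.19 ± 0.19 in WDD lungs, 0.17 ± 0.14 in COPD lungs and -0.26 ± 0.28 in control lungs. Here COPD lungs but not WDD lungs cleared the controls. Among the 10 genes, WDD lungs thus held Ager, Hopx and Aqp5 higher, and Rtkn2 and Emp2 lower, than control lungs did, each without overlap. Subtracting the median does not remove the difference between long and short transcripts seen in both exposed groups. Its part in these relative levels was not tested.

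**Figure D4:**
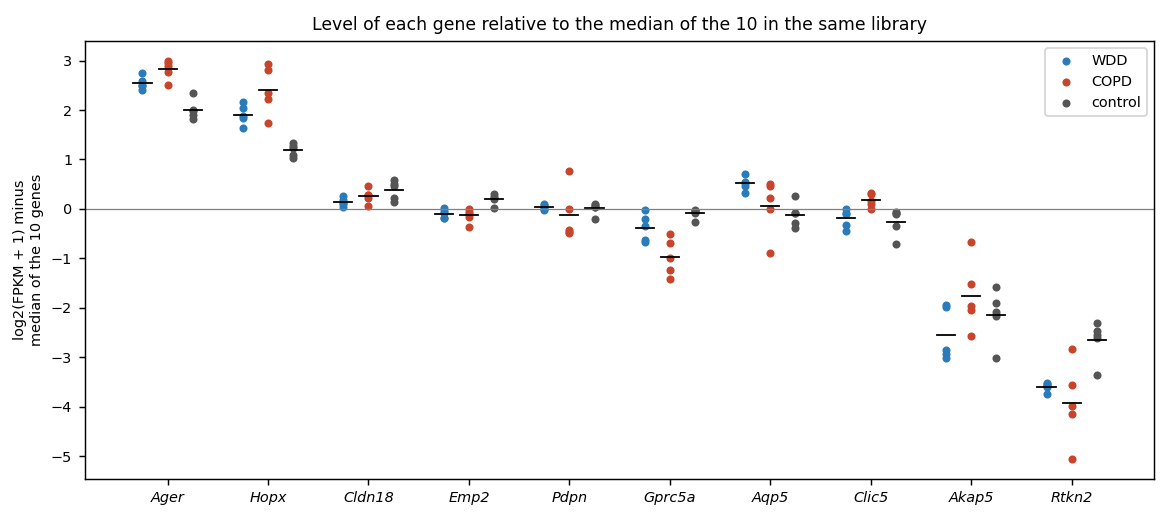
Log2(FPKM + 1) of each gene minus the median of the 10 genes in the same library, 1 point per library in the WDD, COPD and control groups. Ager and Hopx lie higher in WDD and COPD libraries than in every control library, and Emp2 lies lower in both.

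The median log2(FPKM + 1) of the 10 genes was 8.15, 8.01, 7.42, 7.68 and 7.59 in WDD lungs, 4.98, 6.13, 6.30, 5.38 and 6.36 in COPD lungs and 8.16, 8.41, 8.37, 8.13 and 8.39 in control lungs. COPD 1 and COPD 4 were lowest. WDD 1 alone reached the control range. Between members, Pearson correlations over the 15 libraries ran from 0.68 (Aqp5 with Akap5) to 0.99 (Emp2 with Cldn18), values that share the libraries and their group differences. The tested genes outside the list that were most like this median over the 15 libraries were F11r (r = 0.992), Pja1, Pam, App, Lamb3, Bdnf, Clstn1 and Fam234b (r = 0.988 for the last). Likeness of this kind was common: 1733 tested genes, 13.2%, had a correlation over 0.9. Lamb3 encodes a chain of laminin of the epithelial basement membrane and averaged 24.5 ± 3.60 FPKM in WDD lungs against 5.63 ± 1.73 FPKM in COPD lungs. App encodes the amyloid precursor protein and averaged 306 ± 28.3 FPKM in WDD lungs against 103 ± 46.4 FPKM in COPD lungs.

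Further alveolar type 1 genes were tested beside the 10. Of 16 further genes tested, 15 fell in COPD against control lungs with a median of -2.57, 15 rose in WDD against COPD lungs with a median of 1.77, and 9 were lower in WDD than in control lungs. Timp3, an inhibitor of matrix metalloproteinases, averaged 211 ± 61.0 FPKM in WDD lungs, 29.1 ± 20.2 in COPD lungs and 774 ± 211 in control lungs. Col4a3, a collagen chain of the alveolar basement membrane, averaged 5.34 ± 1.32 FPKM in WDD lungs, 0.596 ± 0.361 in COPD lungs and 19.7 ± 4.89 in control lungs. The semaphorin gene Sema3e fell by 3.002 and Lmo7, which encodes a junction-associated protein, fell by 2.91 in COPD against control lungs (adjusted p = 2.33e-09 and 2.68e-09). Icam1, an adhesion molecule induced by inflammation, was the 1 gene of this list that did not pass, at -0.35 (adjusted p = 0.233). After median-of-ratios scaling 14 of the 16 were lower in COPD against control lungs, and Icam1 was higher (0.58, adjusted p = 0.0492).

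Genes that regulate the type 1 fate had smaller median differences. The 17 tested include Nkx2-1, the TEAD factors, Yap1, Wwtr1 (TAZ) and the Hippo kinases. Of these, 15 fell in COPD against control lungs with a median of -1.28, against 66.4% of all tested genes. After median-of-ratios scaling 5 were lower and 2 higher, against 32.3% and 30.2% of all tested genes. Etv5, a transcription factor of distal lung epithelium, averaged 5.30 ± 2.54 FPKM in COPD lungs against 28.8 ± 3.92 FPKM in control lungs. It is also counted among the type 2 genes below. Foxa1, which opens chromatin in lung epithelium, averaged 2.41 ± 1.27 FPKM in COPD lungs against 16.3 ± 2.76 FPKM in control lungs. The Hippo kinase genes Lats1 and Lats2 fell by 1.33 and 1.55 (adjusted p = 5.09e-07 and 1.09e-06). In WDD against COPD lungs 10 of the 17 rose, against 57.1% of all tested genes. Their median of 0.52 turned to -0.10 after median-of-ratios scaling. YAP and TAZ are co-activators that type 1 cells depend on. Of 11 tested targets, 8 fell in COPD against control lungs, against 66.4% of all tested genes. In WDD against COPD lungs 5 rose, against 57.1%, and 6 were lower in WDD than in control lungs, against 31.0%. Ccn1, F3 and Ankrd1 did not pass in COPD against control lungs, at -0.77, -0.15 and 0.14 (adjusted p = 0.0699, 0.686 and 0.753). After median-of-ratios scaling Ankrd1 was higher (1.01, adjusted p = 0.0456). Ccn2, a matricellular growth factor, averaged 176 ± 44.7 FPKM in WDD lungs, 16.9 ± 10.7 in COPD lungs and 217 ± 19.3 in control lungs. Crim1, a transmembrane protein that binds growth factors, averaged 10.1 ± 3.72 FPKM in WDD lungs, 3.34 ± 1.46 in COPD lungs and 56.6 ± 13.5 in control lungs, and WDD differed from control lungs by -2.40 ± 0.26 (adjusted p = 2.36e-05).

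Alveolar type 2 genes fell beside the members. Of 11 tested, 9 were lower in COPD than in control lungs, where the median difference was -2.43 for the 10 type 1 genes and -2.07 for the type 2 genes. In addition, 9 rose in WDD against COPD lungs and 5 were lower in WDD than in control lungs. Their summed FPKM was 32031 to 41065 in WDD lungs, 4714 to 21185 in COPD lungs and 30245 to 43571 in control lungs. Large parts of this sum were Lyz2 and Sftpc. Lyz2 averaged 15603 FPKM in WDD lungs, 4043 in COPD lungs and 14993 in control lungs. Sftpc averaged 14412 FPKM in WDD lungs, 5543 in COPD lungs and 12607 in control lungs. The fall of Sftpc in COPD against control lungs (-1.42, adjusted p = 0.00213) did not pass after median-of-ratios scaling (-0.48, adjusted p = 0.189). Napsa, an aspartic protease, and Lamp3, a lamellar body protein, did not pass in COPD against control lungs, at -0.31 and -0.27 (adjusted p = 0.121 and 0.309). The members' median log2(FPKM + 1) minus the type 2 median was 0.03 ± 0.37 in WDD lungs, -1.50 ± 0.54 in COPD lungs and 0.25 ± 0.20 in control lungs. In COPD lungs the levels of Napsa and Lamp3, 212 and 176 FPKM on average, lay in the middle of the type 2 list, so this difference does not show that type 1 genes fell further than type 2 genes. Sftpb, a surfactant protein, averaged 2388 ± 252 FPKM in WDD lungs, 712 ± 205 in COPD lungs and 3599.7 ± 547 in control lungs, and Slc34a2, a phosphate carrier, averaged 204 ± 38.4 FPKM in WDD lungs, 61.7 ± 15.7 in COPD lungs and 574 ± 159 in control lungs. Of 10 genes of epithelium in general 8 fell and 0 rose in COPD against control lungs, with a median of -1.36. The members' median minus theirs was 2.54 ± 0.29 in WDD lungs, 1.86 ± 0.20 in COPD lungs and 2.62 ± 0.16 in control lungs. Here COPD lungs lay under all control lungs, while WDD lungs overlapped both other groups. As with the type 2 list, 2 genes that did not pass are part of this median.

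Markers of other cells moved in both directions beside the members. In COPD against control lungs, 5 of 7 tested airway club and ciliated genes fell, as did 5 of 6 endothelial genes with Kdr at -2.98 (adjusted p = 1.36e-08), 4 of 7 macrophage genes and the 1 basal cell gene tested, Krt15. Of 8 fibroblast genes 4 fell and 1 rose as deposited, and 0 fell and 3 rose after median-of-ratios scaling. That scaling left 3 macrophage genes lower and 2 higher, 3 airway genes lower, 4 endothelial genes lower, 7 general epithelial genes lower and 1 higher, 8 type 2 genes lower and 2 higher, and 6 targets of YAP and TAZ lower and 1 higher. Cldn5, an endothelial marker, was listed at 0 in every library. Of 9 neutrophil genes 8 rose and 1 fell, and their summed FPKM was 128 to 471 in WDD lungs, 11340 to 43232 in COPD lungs and 81.6 to 129.7 in control lungs. Without mitochondrial genes, the 10 members held 0.676% ± 0.103 of the FPKM sum in WDD lungs, 0.270% ± 0.075 in COPD lungs and 0.871% ± 0.117 in control lungs. In WDD against COPD lungs 6 airway, 5 endothelial and 3 macrophage genes rose and 8 neutrophil genes fell. The part of other cell types in the members' values was not tested.

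**Figure D5:**
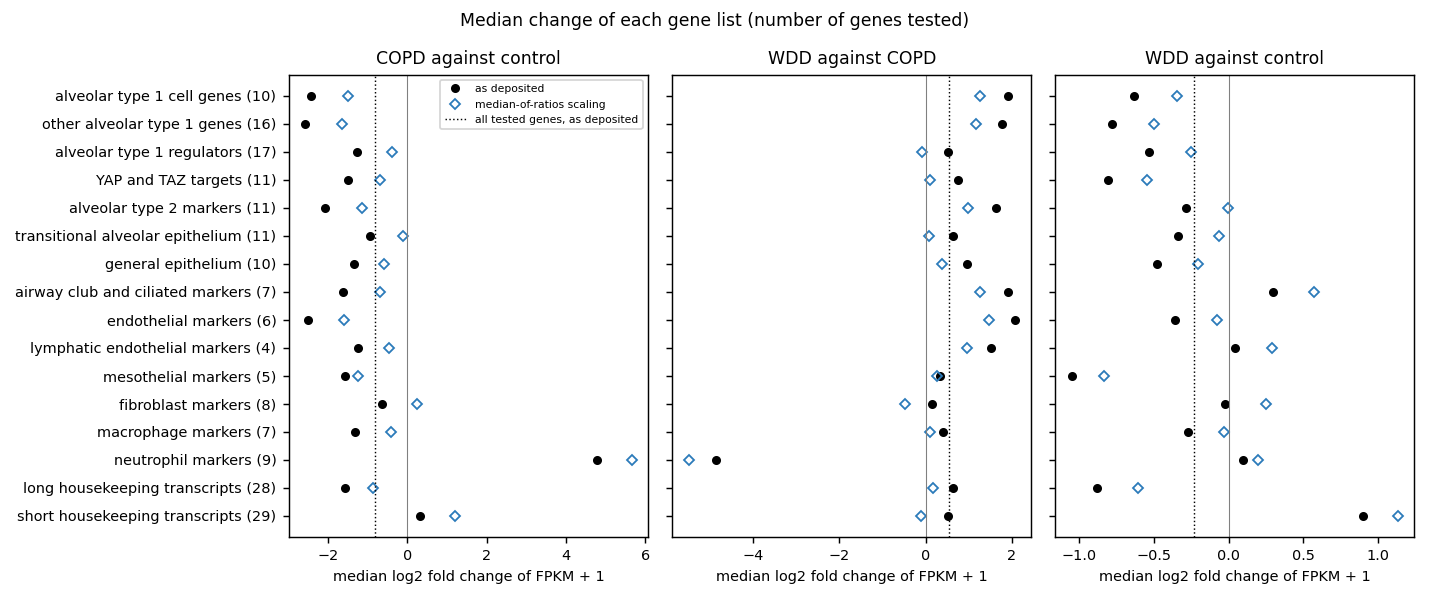
Median log2 difference of each gene list in COPD against control, WDD against COPD and WDD against control, as deposited (filled points) and after median-of-ratios scaling (open points), with the number of genes tested and the median of all tested genes as a dotted line. As deposited, the 10 genes (-2.43, 1.90 and -0.63) lie near the further alveolar type 1 genes (-2.57, 1.77 and -0.78) and near endothelial genes (-2.51, 2.06 and -0.36), and neutrophil genes lie opposite (4.77 and -4.86).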

How the data were processed

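RNA of rat lung was sequenced in 15 libraries, 5 per group, taken from the labels. Per the labels' protocols, RNA was extracted with TRIzol and libraries were made with a NEBNext Ultra kit. Per the submitters' processing notes, reads were handled with cutadapt, HISAT2 and StringTie on build Rnor_6.0; the sources used here give no versions, annotation release or strand use. The deposited values are FPKM computed by the authors. Counting intervals are left out, since read totals were not used here; steps between low FPKM values placed depth at 0.871 (COPD 4) to 1.10 (COPD 2) times that of control 2.

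Values were used as log2(FPKM + 1), which understates changes of low genes. The 13172 genes that reached an FPKM of 1 in 5 or more libraries were fitted together in limma 3.58.1 under R 4.3.3 (group as the only term, trended eBayes, two-sided) and called at a Benjamini-Hochberg adjusted p under 0.05 over all of them. Comparisons share their groups. The fit was tested on simulated data that held no shift in library makeup, so the test does not cover such a shift. Figures and tables used Python 3.11.15, numpy 2.4.6, pandas 2.3.3 and matplotlib 3.10.9. Members and 23 further gene lists were chosen with earlier results of these data known. Of each list, up to 4 genes of lowest p in COPD against control were open to naming. Icam1, Cldn5, Napsa, Lamp3, Sfn, Lgals3, S100b, Ccn1, F3, Ankrd1, Lyz2 and Sftpc were named outside this rule after their values were seen. The 8 tested genes most correlated with the members' median are named. Promoters are from RefSeq, build GRCr8, so the position of the genes in Rnor_6.0 is not given. Alternatives were other pseudocounts, filters and scalings, 2-group fits, library weights, a replicate block and leaving out each library. Added after seeing the data: scaling to the total FPKM of each library, and omission of control 1, COPD 1 and COPD 5 at once. Only 1 of 15 pairs of libraries with the same replicate number had correlated deviations (over 0.1). The labels give no pairing, and none was used in the main fit. These correlations cannot exclude one.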

Additional observations from a re-analysis of the deposited data

Results flagged for a closer look

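Of 57 groups of 5 values that were examined (the members and the library measures in each group), 4 held a library far from the other 4. Chance gives such a gap in about 1 of 20 groups.

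Ager was 1722 FPKM in control 2, while the other control lungs ran between 1105 and 1251 FPKM. Hopx was 864 FPKM in control 2, against 669.6 to 710.2 FPKM in the other control lungs. Without control 2, the difference of COPD from control lungs was -1.53 for Ager and -1.18 for Hopx (adjusted p = 0.000270 and 0.000544, limma).

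Pdpn was 138 FPKM in COPD 5, against 29.0 to 58.0 FPKM in the other COPD lungs. Without COPD 5, Pdpn differed by -2.96 in COPD against control lungs and by 2.46 in WDD against COPD lungs (adjusted p = 7.34e-09 and 1.58e-07, limma). In the same library the median log2(FPKM + 1) of the 10 genes minus that of the endothelial genes was 2.92, against 0.33 to 0.98 in the other COPD lungs. COPD 5 also stood apart from the other COPD lungs over all tested genes. The SD of the log2 differences between 2 libraries was 0.90 to 0.97 in pairs with COPD 5. It was 0.40 to 0.56 in pairs of the other COPD lungs. The cause was not tested.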

How the results depend on the processing

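Each member's difference was recomputed under 28 alternatives. The direction and call were kept in 279 of 280 cases for COPD against control and in 278 of 280 for WDD against COPD, and in none was the direction turned. The lost calls were Hopx for COPD against control under median-of-ratios scaling, and Akap5 for WDD against COPD under that scaling and under quantile normalisation (adjusted p = 0.184 and 0.0892). For WDD against control 244 of 280 were kept; Rtkn2 and Gprc5a stayed lower under all 28. The calls of Akap5, Emp2 and Cldn18 were lost in 11 cases, and in 11 others Pdpn (5) and Clic5 (6) passed as lower (adjusted p = 0.00410 to 0.0458). Ager, which lay near zero (0.02), changed sign under quantile normalisation (-0.90, where it passed as lower, adjusted p = 0.00492), scaling to the FPKM sum without mitochondrial genes (-0.14) or of all genes (-0.37), with control 1, COPD 1 and COPD 5 left out (-0.017), and over leaving out single libraries (-0.066 to 0.13, with negative values without WDD 1, WDD 2, control 1, control 3 and control 4). Hopx changed sign under quantile normalisation (-0.45) and the sum of all genes (-0.20). Aqp5 changed sign under quantile normalisation (-0.044) and the sums without mitochondrial genes (-0.047) and of all genes (-0.28). Members lower in WDD against control numbered 2 under median-of-ratios scaling, 8 under quantile normalisation, 6 with the FPKM sum without mitochondrial genes, 7 each with 2-group fits, library weights, the sum of all genes and the 3 libraries left out, and 3 to 5 when 1 library was left out (3 without WDD 3 and without control 5).

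Counts over all genes, higher and lower, were 1084 and 8749 for COPD against control, 7526 and 873 for WDD against COPD, and 836 and 4079 for WDD against control. Median-of-ratios scaling gave 3977 and 4257, 3076 and 2819, and 2100 and 2221. Quantile normalisation gave 3737 and 3893, 2910 and 2469, and 2288 and 2408. The FPKM sum without mitochondrial genes gave 4544 and 1511 for WDD against COPD, and 645 and 5349 for WDD against control. The sum of all genes gave 481 higher for COPD against control, and 304 and 7581 for WDD against control. For WDD against control, a mean FPKM of at least 5 gave 2555 lower. In that comparison 2-group fits gave 1642 higher and 5569 lower, and library weights gave 2093 higher and 6116 lower. Leaving out control 1, COPD 1 and COPD 5 gave 1702 higher for COPD against control and 1350 lower for WDD against COPD. For WDD against control this gave 1700 higher and 5341 lower. Leaving out 1 library gave 929 to 1310 and 8385 to 8981, 6814 to 7750 and 773 to 1061, and 592 to 1161 and 3343 to 4914. With the replicate block the counts were 1046 and 8701, 7327 and 854, and 740 and 3897, and no member's call changed. The labels state no link between same-numbered libraries.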

Other observations

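Genes of transitional alveolar epithelium, the state between type 2 and type 1 cells after injury, did not move as one. Of 11 tested, 7 fell and 2 rose in COPD against control lungs, 6 rose and 1 fell in WDD against COPD lungs, and 2 were lower in WDD than in control lungs. After median-of-ratios scaling 4 fell and 3 rose in COPD against control lungs, and 4 rose and 3 fell in WDD against COPD lungs. The keratin gene Krt19 averaged 82.3 ± 10.3 FPKM in WDD lungs, 14.7 ± 3.21 in COPD lungs and 134 ± 12.3 in control lungs. Krt8, the keratin most often used to mark the state, averaged 121 ± 8.67 FPKM in WDD lungs, 36.0 ± 11.5 in COPD lungs and 116 ± 9.86 in control lungs. Lgals3, a lectin that macrophages also express, rose by 0.92 ± 0.23 (adjusted p = 0.00207) and Sfn, a 14-3-3 protein of epithelium, by 0.95 ± 0.30 (adjusted p = 0.00928) in COPD against control lungs (limma).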
